A study of Homo sapiens with 4 samples.

Results

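The genes described here encode the vacuolar proton pump (V-ATPase) and the main proteins of the lysosome, chosen by name as a list of 44 genes among the 26506 gene symbols measured. They comprise 8 genes of the membrane-bound V0 sector of the pump, 9 of its catalytic V1 sector, 2 accessory subunits, 3 lysosomal membrane proteins, 8 proteases, 8 glycosidases, 4 lipid hydrolases and lipid carriers, and the transcription factors TFEB and TFE3. Of the 44, 43 were found under the listed symbol, and CTSL1 was matched as CTSL, its current symbol.

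HeyC2 and SKOV3 are established human ovarian cancer cell lines. Each was transfected with 3 μg of a pCMV6 plasmid that carries TET1 or with the empty plasmid, and all cells, controls included, were then kept under 400 μg/ml Geneticin. The viral promoter of such a plasmid drives TET1 without regard to its native control, and each TET1 line was compared with a single line carrying the empty plasmid. RNA sequencing was performed on 1 library per condition, 4 in all, so no difference given below has a replicate check and no p-value was computed.

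TET1 starts the active removal of DNA methylation by oxidising 5-methylcytosine. The V-ATPase hydrolyses ATP in its cytosolic V1 sector and drives protons through the membrane ring of its V0 sector into the lysosome. Acid hydrolases need that low pH, and most of them reach the lysosome on mannose 6-phosphate receptors. TFEB and TFE3 bind the E-box CACGTG and its extended form, known as the CLEAR element, in the promoters of many of these genes. Pathway collections also place V-ATPase subunits under oxidative phosphorylation, the process on which the study of these cells centred, although the pump is not part of the mitochondrial chain.

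Expression was deposited as FPKM (fragments scaled to transcript length and to the mapped total), which allows levels to be compared between genes. In both TET1 libraries every value had been multiplied by a constant that sets GAPDH equal to the control, 3.23 in HeyC2 and 1.35 in SKOV3, and the constant was divided out. TET1 itself was then at 0.20 FPKM in control and 0.52 in TET1 cells of HeyC2, and at 0.43 and 1.80 in those of SKOV3, higher in the TET1 library of each line. Both HeyC2 values are near the floor and below the filter of 1 FPKM used here, so TET1 was not tested in HeyC2. ERBB2, which is amplified in SKOV3, was at 20.09 and 23.82 FPKM in the HeyC2 libraries and at 1282 and 1464 in the SKOV3 libraries. Cell type genes differed between TET1 and control in both lines. In HeyC2, KRT7 was at 289.7 FPKM in the control and 1125 with TET1, and the epithelial markers summed to 1272 and 2086 FPKM. In SKOV3, KRT7 was at 1537 FPKM in the control and 21.96 with TET1, KRT19 at 255.1 and 0.46, and the collagen gene COL1A1 at 0.32 and 27.66, while the epithelial markers summed to 2637 and 1206 FPKM. In SKOV3 these sums join markers that moved in both directions. By the change defined below, 2 of 7 tested were higher and 2 lower, with a median of 0.21 (28.6% each, beside 20.7% and 18.2% of all genes). In HeyC2, 2 of 5 tested were higher and 0 lower, with a median of 0.54 (40% and 0%, beside 12.5% and 9.19%). KRT19, among those higher, was near the floor in HeyC2, at 0.62 FPKM in the control and 1.59 with TET1. It passed the filter there only through the TET1 library, so this share can show little. Of 9 epithelial ovarian cancer markers, EPCAM, CDH1, MUC16 and WT1 were near 0 in HeyC2, and MUC16 and WT1 were below 1 FPKM in all 4 libraries. Fibroblast markers summed to 0.57, 1.76, 0.98 and 33.29 FPKM in the libraries in the order HeyC2 control, HeyC2 with TET1, SKOV3 control, SKOV3 with TET1. Estimated depth was 6620000 to 7380000 fragments per library. In the fit behind this estimate, low FPKM fell only partly on whole fragments (mean cosine 0.42 to 0.51, with 1 for an exact fit). The fitted fragment length was 150 bases in HeyC2 and 200 in SKOV3. Fragment numbers and counting intervals below rest on this fit and are approximate. Across 13088 genes, Pearson's r of the log values was 0.962 between the HeyC2 libraries, 0.910 between the SKOV3 libraries and 0.711 to 0.751 between lines. The points of these correlations are genes of single libraries, not replicates.

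The change of each gene with TET1 is given as log2 of the ratio of FPKM + 1, minus the median change of all genes tested in that line. That median was 0.06 in HeyC2 and 0.19 in SKOV3. Genes with a mean of at least 1 FPKM over both libraries of a line were tested, and a change is called higher or lower past 1.5-fold. Brackets hold approximate 95% intervals for counting error alone, from the estimated number of fragments and without the pseudocount. They do not cover variation between cultures.

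Promoter sequence is shown for the genes in which the CACGTG element and the direction of change can be compared side by side: GAA and MCOLN1, which share the long form of the element and moved apart in SKOV3, then ATP6V1G1, LAMP1 and CTSD, which carry the element and were lower in SKOV3 TET1, ATP6V0E2, the only member called higher in both lines, and TCIRG1, which holds no CACGTG in its window. Each line gives the 100 bases before the RefSeq start site, 5′ to 3′ on the strand of the gene, with coordinates on GRCh38.p14, a later build than the hg19 (GRCh37) of the expression files. ATP6V1G1 holds the long form too. CACGTG is in capitals.
GAA, chr17:80101481-80101580, plus strand: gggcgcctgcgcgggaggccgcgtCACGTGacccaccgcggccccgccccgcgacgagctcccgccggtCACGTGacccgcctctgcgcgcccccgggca
MCOLN1, chr19:7522524-7522623, plus strand: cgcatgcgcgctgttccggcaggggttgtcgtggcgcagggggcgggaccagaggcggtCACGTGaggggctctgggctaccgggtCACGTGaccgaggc
ATP6V1G1, chr9:114587669-114587768, plus strand: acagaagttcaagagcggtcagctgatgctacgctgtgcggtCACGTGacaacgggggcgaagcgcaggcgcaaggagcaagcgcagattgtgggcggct
LAMP1, chr13:113297139-113297238, plus strand: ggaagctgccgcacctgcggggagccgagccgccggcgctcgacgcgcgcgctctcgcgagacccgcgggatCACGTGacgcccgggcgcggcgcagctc
CTSD, chr11:1763928-1764027, minus strand: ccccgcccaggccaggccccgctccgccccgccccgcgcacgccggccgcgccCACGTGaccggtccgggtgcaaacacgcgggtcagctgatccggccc
ATP6V0E2, chr7:149872868-149872967, plus strand: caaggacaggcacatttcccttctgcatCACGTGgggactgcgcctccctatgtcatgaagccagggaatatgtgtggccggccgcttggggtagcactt
TCIRG1, chr11:68038925-68039024, plus strand: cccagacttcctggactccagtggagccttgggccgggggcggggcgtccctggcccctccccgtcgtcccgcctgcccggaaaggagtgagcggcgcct

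The wider window of 250 bases before to 50 bases after the start was searched for CACGTG, which reads the same on both strands, in the 27305 genes of the RefSeq table. It occurred in 2396 genes (8.77%) and in 11 of the 33 members with an entry (33.3%): ATP6V0B, ATP6V0D1, ATP6V0E2, ATP6V1G1, LAMP1, MCOLN1, CTSA, CTSD, CTSF, GAA and NEU1. The longer palindrome TCACGTGA, which contains it, occurred in 321 genes (1.18%) and in 6 members (18.2%), and its extension by a further G at the front and C at the end in 115 genes (0.421%) and in 3 members, GAA, MCOLN1 and ATP6V1G1 (9.09%). LAMP1 held 6 copies of CACGTG, and ATP6V0B, MCOLN1, CTSA, CTSF and GAA 2 each. The members were listed by function and many are known TFEB targets, so these shares describe the list. There was no entry for ATP6V0E1, ATP6V1A, ATP6V1B2, ATP6V1C1, ATP6V1H, LAMP2, CTSB, HEXA, NAGLU, PSAP and ASAH1.

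The members were expressed at middle to high levels in both lines. Their median was 37.47 FPKM without and 34.70 with TET1 in HeyC2, and 31.99 without and 36.70 with TET1 in SKOV3. Together they held 0.509%, 0.552%, 0.688% and 0.676% of the summed FPKM of these libraries in the same order. PSAP, which encodes the precursor of the saposins, activators of sphingolipid breakdown, was among the 3 highest members in every library. At the other end, CTSH was listed at 0 in both HeyC2 libraries and CTSF at 0.07 and 0 FPKM, while the SKOV3 libraries held 17.58 to 36.78 FPKM of these protease genes.

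**Figure D1:**
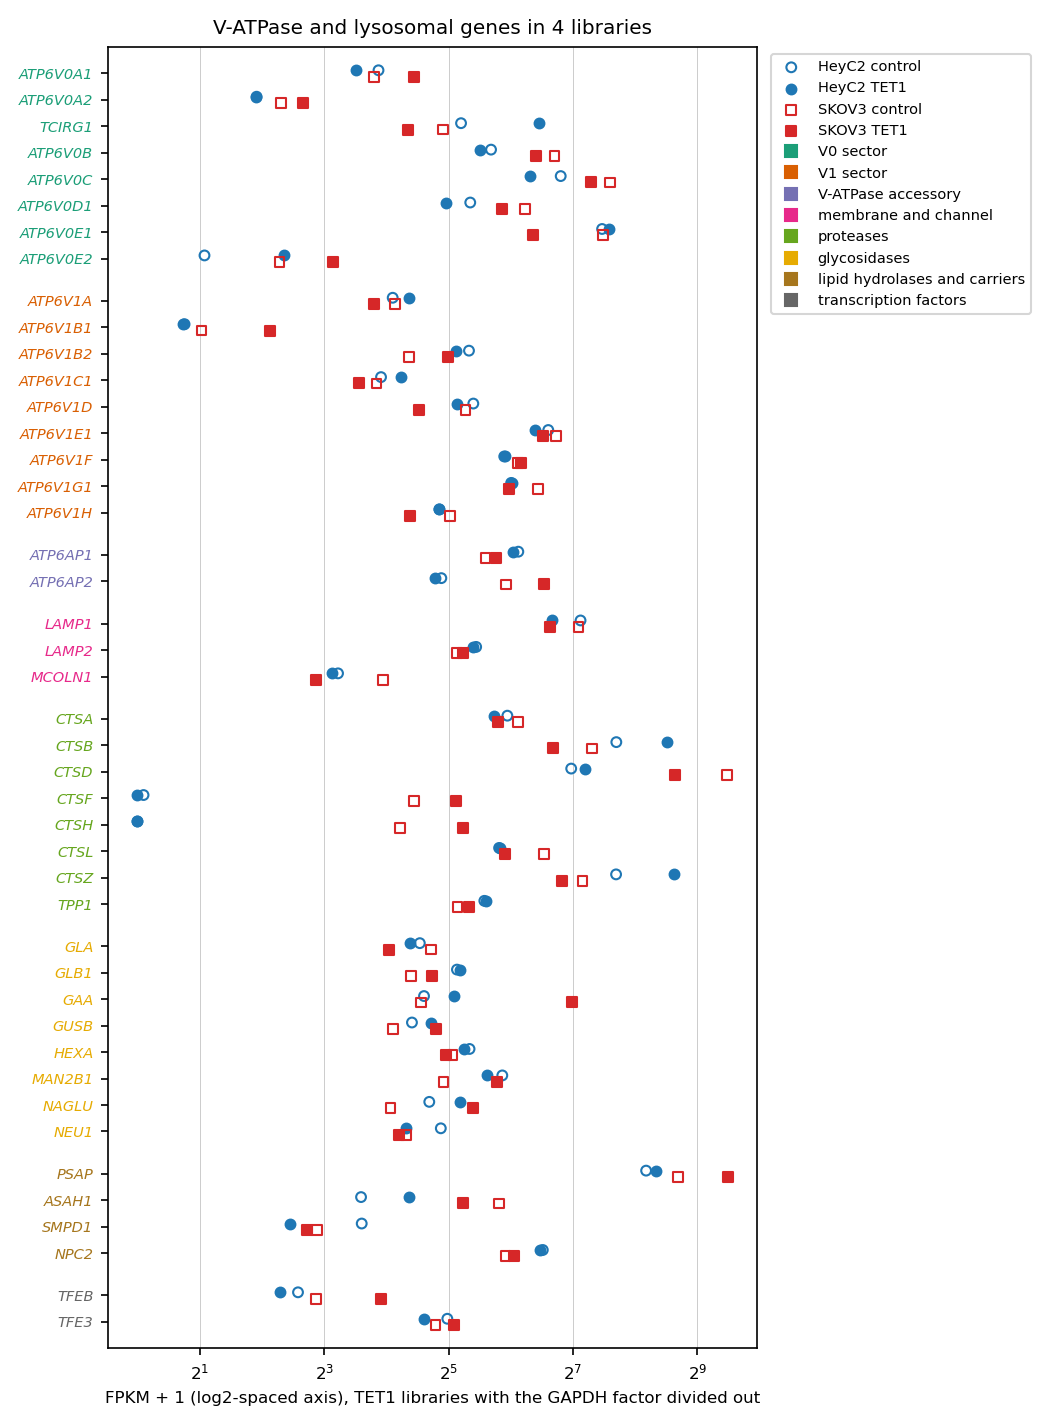
Level of each of the 44 genes in the 4 libraries, as FPKM + 1 on a log2-spaced axis, with the GAPDH factor divided out of the TET1 libraries. Open symbols are controls, filled symbols are TET1 libraries, blue circles are HeyC2 and red squares are SKOV3. CTSF and CTSH lie at the left edge in HeyC2 only, and CTSD reaches 711.9 FPKM in the SKOV3 control.

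In HeyC2, 41 members passed the filter, of which 5 were higher with TET1 (12.2%, beside 12.5% of the 11896 genes tested) and 2 were lower (4.88%, beside 9.19% of all genes). TCIRG1, ATP6V0E2, CTSZ, CTSB and ASAH1 were the higher genes, and NEU1 and SMPD1 the lower. In either direction 21.7% of all genes were called. The median change of the members was -0.10, with 13 of 41 above the all-gene median, against quartiles of -0.28 and 0.30 for all genes. The share of members called was thus near the background for higher and below it for lower genes. On the GAPDH-scaled values as deposited, with no centring, 41 members were higher and 0 lower, as the constant raises every gene. RNA was taken from whole cultures, so a change in every cell and a change in the share of some cells cannot be told apart.

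In SKOV3, all 44 members passed, 8 were higher with TET1 (18.2%, beside 20.7% of the 13016 genes tested) and 12 were lower (27.3%, beside 18.2% of all genes). The higher genes were GAA, NAGLU, ATP6V1B1, TFEB, CTSH, MAN2B1, ATP6V0E2 and PSAP. The lower genes were ATP6V0E1, MCOLN1, CTSD, ATP6V1D, GLA, ATP6V1H, CTSL, CTSB, ASAH1, TCIRG1, ATP6V1G1 and LAMP1. In either direction 38.8% of all genes were called. The member median was -0.30, and 17 of 44 lay above the all-gene median, against quartiles of -0.44 and 0.48 for all genes. Well expressed genes as a whole were lower in this library: of 7134 genes with a mean of at least 10 FPKM, 23.3% were lower, 12.5% were higher, and the median was -0.16. When each gene was instead centred on genes of like expression, 13 members were higher and 6 lower, with a median of -0.10, and rescaling each library to an equal sum (TPM) in place of any centring also gave 13 and 6. Upper-quartile scaling in place of centring gave 11 and 8, and the GAPDH-scaled values as deposited, with no centring, 18 and 2. The GAPDH-scaled values with centring kept gave 8 and 12. The balance of higher to lower members in SKOV3 thus turned with the centre against which the changes were taken. A change of centre moves other genes too, and the shares of all genes called under these settings were not counted. These counts therefore do not show how the members stood beside all genes.

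**Figure D2:**
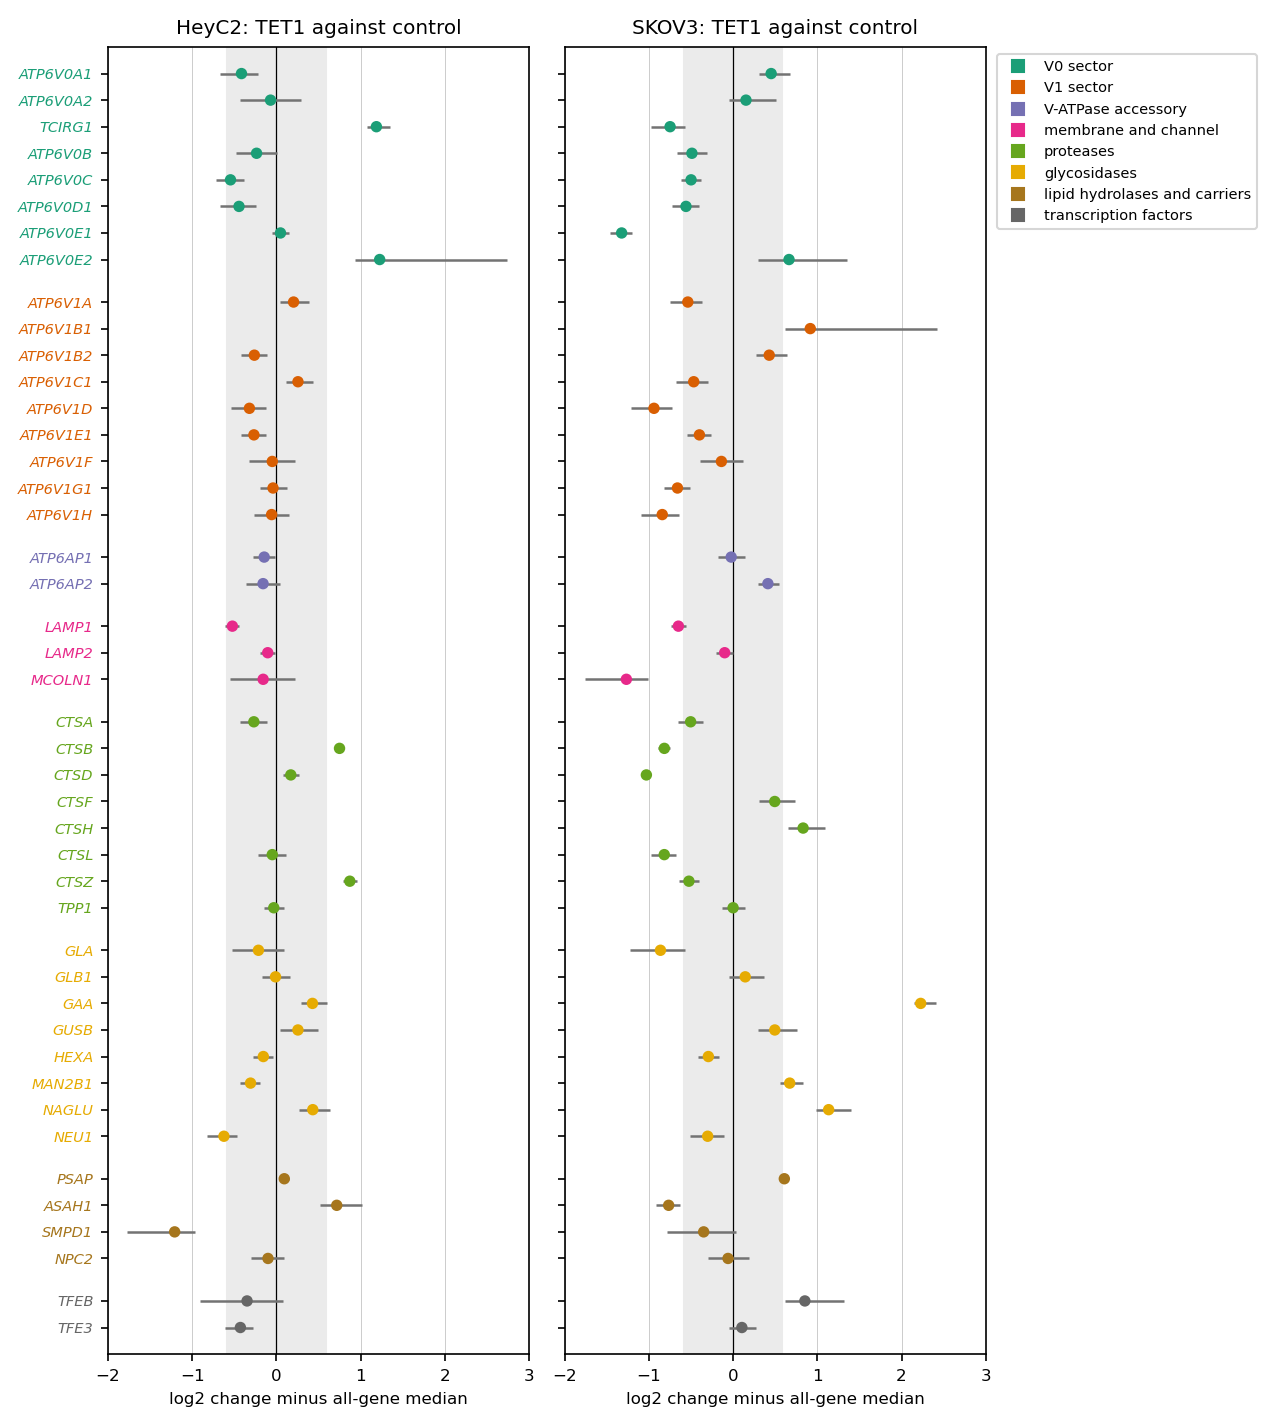
Change with TET1 in HeyC2 (left) and SKOV3 (right) for each member, as log2 of the ratio of FPKM + 1 minus the all-gene median, coloured by role. Points are the change of 1 TET1 library against 1 control, bars are approximate 95% counting intervals, computed without the pseudocount, and the grey band spans changes under 1.5-fold. CTSF, CTSH and ATP6V1B1 were not tested in HeyC2, and GAA stands farthest to the right in SKOV3 at 2.23.

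Within the V-ATPase, the V0 sector held both genes called in HeyC2 and the gene with the lowest change in SKOV3. Its HeyC2 calls were 2 higher and 0 lower of 8 (25% and 0%, beside 12.5% and 9.19% of all genes). Its SKOV3 calls were 1 higher and 2 lower of 8 (12.5% and 25%, beside 20.7% and 18.2%). With 8 genes these shares can show little. The a subunit, which forms the proton path and directs the pump to its membrane, comes in alternative forms encoded by ATP6V0A1, ATP6V0A2, TCIRG1 and ATP6V0A4. TCIRG1 (chr11:67806492-67818362, GRCh37), the form best known from the acid-secreting membrane of osteoclasts, was at 35.77 FPKM in the HeyC2 control and 86.19 with TET1, and at 29.06 in the SKOV3 control and 19.45 with TET1. It was 2.28-fold higher in HeyC2 (1.19 on the log2 scale [1.08 to 1.34]) and 1.68-fold lower in SKOV3 (-0.75 [-0.97 to -0.57]). ATP6V0A1 went the other way in each line without passing 1.5-fold, from 13.66 to 10.45 FPKM in HeyC2 (-0.41) and from 12.96 to 20.82 in SKOV3 (0.45). ATP6V0A2 stayed between 2.74 and 5.29 FPKM in the 4 libraries, with changes of -0.07 and 0.15.

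As a share of the summed FPKM of the a subunit genes, TCIRG1 made up 68.0% without and 86.0% with TET1 in HeyC2, and 62.8% without and 42.0% with TET1 in SKOV3. ATP6V0A1 made up 26.0%, 10.4%, 28.0% and 45.0% in the same order. The controls of both lines were close in this makeup, and the TET1 libraries departed from them in opposite directions. The summed level nearly doubled on the FPKM scale in HeyC2, from 52.58 to 100.3, and was 46.27 and 46.29 in SKOV3. Beside these values, 4 of 5 osteoclast markers were below 1 FPKM in every library and CTSK, the fifth, was at 1.12 to 4.05, higher with TET1 in both lines, and 5 of 7 leukocyte markers were below 1 FPKM in every library. The leukocyte markers summed to 57.85 and 93.66 FPKM in HeyC2 and 15.25 and 23.38 in SKOV3, mostly from CD68, itself a lysosomal membrane protein. The part of other cells in the TCIRG1 values was not tested.

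The e subunit is a small membrane protein of V0 with alternative forms encoded by ATP6V0E1 and ATP6V0E2. ATP6V0E1 (chr5:172410774-172462448, GRCh37) was at 175.9 FPKM without and 189.5 with TET1 in HeyC2, and at 177.8 and 80.65 in SKOV3, where it was the member with the lowest change (-1.32 [-1.46 to -1.20], 2.50-fold lower). ATP6V0E2 was scarce, at 1.11 and 4.14 FPKM in HeyC2 and 3.86 and 7.80 in SKOV3, and was higher in both lines (1.23 [0.94 to 2.74] and 0.66 [0.29 to 1.35]). Its SKOV3 call was lost after correction for GC content and length (0.55). Its share of e subunit FPKM was 0.627% and 2.14% in HeyC2 and 2.12% and 8.82% in SKOV3. About 13 to 81 fragments lie behind its values. The antisense gene ATP6V0E2-AS1, at 0.05, 0.76, 0.29 and 0.88 FPKM, overlaps it over 7643 bases, and as strand-specific counting is not stated, reads of the pair cannot be told apart. Among all 11136 genes tested in both lines, 3.56% were higher in both, beside 1 of 41 members (2.44%).

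The remaining V0 genes lay below the all-gene median in both lines, none past 1.5-fold. ATP6V0C, which encodes the proton-carrying ring subunit, was at 110.6 and 78.63 FPKM in HeyC2 (-0.54) and at 191.9 and 155.0 in SKOV3 (-0.50). Pseudogenes of ATP6V0C resemble it closely, so its reads may have been divided among them in counting. ATP6V0D1, for the subunit that joins the ring to the central stalk, was at 39.74, 30.18, 74.14 and 57.26 FPKM (-0.44 in HeyC2 and -0.56 in SKOV3), and ATP6V0B, another ring subunit, at 50.36, 44.42, 103.0 and 83.72 (-0.24 and -0.49). The V0 median was -0.15 over 8 genes in HeyC2 and -0.49 in SKOV3, or -0.14 and -0.16 relative to genes of like expression.

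**Figure D3:**
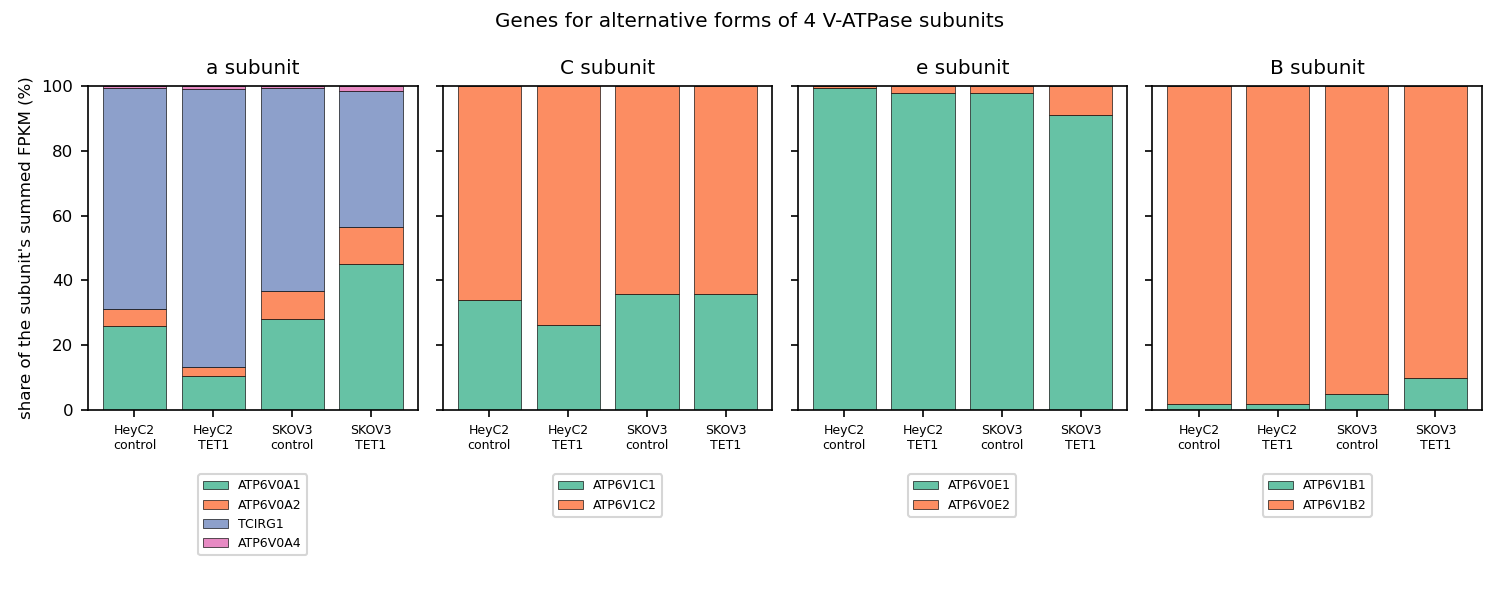
Share of summed FPKM (%) taken by each gene that encodes an alternative form of the a, C, e and B subunits of the V-ATPase, in the 4 libraries. Each bar is 1 library and sums to 100%, and the TCIRG1 share of the a subunit is 86.0% in HeyC2 TET1 and 42.0% in SKOV3 TET1.

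None of the 8 V1 genes tested in HeyC2 was called (0% higher and 0% lower, beside 12.5% and 9.19% of all genes), with a median of -0.05. With 8 genes this count can show little. In SKOV3, 3 of 9 were lower and 1 higher (33.3% and 11.1%, beside 18.2% and 20.7% of all genes), with a median of -0.47. ATP6V1D, a subunit of the rotating central stalk, was at 41.16 and 34.15 FPKM in HeyC2 (-0.32) and 37.65 and 22.03 in SKOV3 (-0.94 [-1.21 to -0.72]). The regulatory subunit gene ATP6V1H was at 27.88 and 27.91 FPKM in HeyC2 (-0.06) and 31.58 and 19.78 in SKOV3 (-0.84 [-1.09 to -0.65]). ATP6V1G1, a peripheral stalk gene, was at 63.25 and 64.06 in HeyC2 (-0.04) and 85.58 and 61.59 in SKOV3 (-0.66 [-0.82 to -0.51]), and its SKOV3 call was lost under 6 of the other settings tried. The catalytic subunit gene ATP6V1A changed little in HeyC2 (16.17 and 19.59 FPKM, 0.20) and stayed under the limit in SKOV3 (16.62 and 12.87, -0.54). The C subunit gene ATP6V1C1, whose product helps to couple V1 to V0, was at 14.08 and 17.75 FPKM in HeyC2 (0.26) and 13.34 and 10.85 in SKOV3 (-0.47).

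The B subunit, which with A forms the catalytic head, has a kidney form encoded by ATP6V1B1 and a widespread form encoded by ATP6V1B2. ATP6V1B1 was at 0.69 and 0.67 FPKM in HeyC2, below the filter, and at 1.04 and 3.40 in SKOV3, where it was higher (0.92 [0.62 to 2.42]) on about 13 and 39 fragments. ATP6V1B1-AS1 overlaps it on the opposite strand at 0 and 0.58 FPKM in SKOV3, and VAX2 on the same strand at 3.32 and 4.0. ATP6V1B2 was at 39.17 and 33.88 FPKM in HeyC2 (-0.26) and 19.61 and 30.71 in SKOV3 (0.43), and remained over 90% of B subunit FPKM in all libraries. The stalk gene ATP6V1E1 was at 83.07 to 105.0 FPKM, with changes of -0.27 and -0.40, and ATP6V1F at 58.49 to 70.74, with changes of -0.05 and -0.14. Of the accessory subunits, which help to assemble and traffic the pump, ATP6AP1 was at 47.32 to 68.59 FPKM (-0.14 and -0.02), while ATP6AP2, the prorenin receptor, was at 28.52 and 26.54 in HeyC2 (-0.16) and 59.89 and 91.65 in SKOV3 (0.41).

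For the 19 V-ATPase members together, the median change was -0.11 in HeyC2 over the 18 tested, with 2 higher and 0 lower (11.1% and 0%, beside 12.5% and 9.19% of all genes). In SKOV3 it was -0.47, with 2 higher and 5 lower (10.5% and 26.3%, beside 20.7% and 18.2%). Relative to genes of like expression the SKOV3 median was -0.13, and it turned to 0.13 on the GAPDH-scaled values with no centring. Summed over the complex, these genes held 0.183% and 0.173% of all FPKM in HeyC2 and 0.229% and 0.197% in SKOV3. As 0 V-ATPase members were called lower in HeyC2, none could be called lower in both lines.

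Among lysosomal membrane proteins, MCOLN1 (chr19:7587510-7598895, GRCh37), which encodes the calcium channel TRPML1, was at 8.34 and 7.72 FPKM in HeyC2 (-0.16) and 14.40 and 6.31 in SKOV3 (-1.27 [-1.76 to -1.01], 2.41-fold lower). LAMP1, which encodes a glycoprotein that coats the inner face of the lysosomal membrane, was at 138.2 and 99.85 FPKM in HeyC2 (-0.52) and 135.2 and 98.24 in SKOV3 (-0.65 [-0.74 to -0.56]). LAMP1 levels were thus nearly the same in both lines, and the SKOV3 call of LAMP1 was lost under 6 of the other settings. LAMP2 lay between 34.20 and 42.51 FPKM, with a change of -0.10 in each line.

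Proteases of the lysosome, mostly cathepsins, included a gene called in opposite directions in the lines. CTSB, a cysteine cathepsin encoded on the short arm of chromosome 8, was at 206.4 FPKM in the HeyC2 control and 362.0 with TET1, and at 157.0 in the SKOV3 control and 101.5 with TET1. That is 1.68-fold higher in HeyC2 (0.75 [0.70 to 0.80]) and 1.76-fold lower in SKOV3 (-0.82 [-0.89 to -0.75]). CTSZ, the gene of cathepsin X, was at 205.8 and 392.9 FPKM in HeyC2 (0.87 [0.80 to 0.95]) and 141.3 and 112.0 in SKOV3 (-0.52 [-0.65 to -0.41]), the latter within 1.5-fold. It overlaps NELFCD on the opposite strand, which was at 28.74 to 46.34 FPKM. With TET1, CTSZ and CTSB became the highest members in HeyC2, above PSAP.

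CTSD (chr11:1773982-1785803, GRCh37), the aspartic cathepsin, was at 124.4 and 146.0 FPKM in HeyC2 (0.17) and at 711.9 and 398.0 in SKOV3 (-1.03 [-1.08 to -0.98], 2.04-fold lower). Even so, its level in SKOV3 TET1 exceeded that in either HeyC2 library. CTSL was at 55.18 and 55.54 FPKM in HeyC2 (-0.05) and 91.71 and 59.12 in SKOV3 (-0.82 [-0.97 to -0.68]). CTSH, an aminopeptidase listed at 0 in both HeyC2 libraries, was at 17.58 and 36.78 FPKM in SKOV3 (0.83 [0.65 to 1.09]), and CTSF at 20.71 and 33.95 (0.49, not called). In HeyC2, 2 of 6 tested proteases were higher and 0 lower (33.3% and 0%, beside 12.5% and 9.19% of all genes). In SKOV3, CTSD, CTSL and CTSB were called lower and CTSH higher. That is 3 lower and 1 higher of 8 (37.5% and 12.5%, beside 18.2% and 20.7% of all genes). The CTSL and CTSB calls were each lost under 3 other settings, among them centring on genes of like expression (-0.55 and -0.43). CTSA, which protects GLB1 and NEU1 in a complex, was at 52.27 to 68.14 FPKM, with changes of -0.27 and -0.50, and TPP1, a tripeptidyl peptidase, at 34.32 to 47.56, with changes of -0.03 and 0.00.

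Glycosidases strip sugars from glycogen, glycoproteins and glycolipids. GAA (chr17:78075332-78093680, GRCh37), the glycogen-degrading enzyme missing in Pompe disease, was at 23.34 and 33.10 FPKM in HeyC2 (0.43 [0.29 to 0.60]) and at 22.62 and 125.4 in SKOV3 (2.23 [2.15 to 2.41], 4.68-fold higher). It had the largest change of any member in either line, and 98.8% of the genes tested in SKOV3 had a smaller value. NAGLU, which degrades heparan sulfate, was at 24.81 and 35.25 FPKM in HeyC2 (0.43 [0.27 to 0.63]) and 15.75 and 41.03 in SKOV3 (1.14 [0.98 to 1.40]). Both genes lay above the all-gene median in each line, past 1.5-fold in SKOV3, and the difference between lines was not tested.

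MAN2B1, an α-mannosidase, was at 57.22 and 47.99 FPKM in HeyC2 (-0.31) and 29.21 and 54.01 in SKOV3 (0.67 [0.55 to 0.84]). GLA, the α-galactosidase deficient in Fabry disease, was at 22.23 and 19.86 FPKM in HeyC2 (-0.21) and 25.30 and 15.53 in SKOV3 (-0.86 [-1.22 to -0.57]). The ribosomal protein gene RPL36A overlaps GLA on the opposite strand at 479.2, 511.8, 206.5 and 157.1 FPKM, and its part in the GLA values was not tested. NEU1, the lysosomal sialidase, was lower in HeyC2, from 28.35 to 18.84 FPKM (-0.62 [-0.83 to -0.47]), a call that 3 other settings moved within 1.5-fold and the GAPDH-scaled values with no centring turned to 1.08, and NEU1 was at 18.83 and 17.38 in SKOV3 (-0.30). The other glycosidases were not called: GUSB was at 20.28 and 25.45 FPKM in HeyC2 and 16.23 and 26.75 in SKOV3 (0.26 and 0.50), GLB1 had changes of -0.01 and 0.14, and HEXA -0.16 and -0.29. As a group the 8 glycosidases had a median of -0.08 in HeyC2, with 0 higher and 1 lower (0% and 12.5%, beside 12.5% and 9.19% of all genes). Their median was 0.32 in SKOV3, with 3 higher and 1 lower (37.5% and 12.5%, beside 20.7% and 18.2%). The 8 proteases had a median of -0.51 in SKOV3, and the 3 membrane proteins one of -0.65. Relative to genes of like expression these SKOV3 medians were 0.42 for glycosidases, -0.17 for proteases and -0.38 for membrane proteins.

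Enzymes and carriers of lipids moved singly. ASAH1, the acid ceramidase, which cleaves ceramide to sphingosine, was at 11.07 and 19.65 FPKM in HeyC2 (0.72 [0.52 to 1.02], 1.64-fold higher) and 54.94 and 36.61 in SKOV3 (-0.77 [-0.92 to -0.64], 1.70-fold lower). SMPD1 (chr11:6411670-6416228, GRCh37), the acid sphingomyelinase, which makes ceramide, was the member with the lowest change in HeyC2, from 11.16 to 4.48 FPKM (-1.21 [-1.78 to -0.97], 2.31-fold lower, and 0.35 on the GAPDH-scaled values with no centring). In SKOV3 it was at 6.37 and 5.61 (-0.35). In HeyC2 the level of SMPD1 was thus about equal to that of ASAH1 in the control and below it with TET1. PSAP was at 288.0 and 320.0 FPKM in HeyC2 (0.09) and 410.0 and 715.0 in SKOV3 (0.61 [0.57 to 0.65]), which lies just past the limit. NPC2, the soluble cholesterol carrier, was at 59.34 to 90.42 FPKM, with changes of -0.10 and -0.06.

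TFEB, a master regulator of lysosome genes, was at 4.98 and 3.89 FPKM in HeyC2 (-0.35 [-0.91 to 0.08]) and 6.30 and 14.06 in SKOV3 (0.85 [0.62 to 1.31], 1.81-fold higher). TFE3, its relative, was more abundant, at 30.56 and 23.43 FPKM in HeyC2 (-0.43) and 26.68 and 33.00 in SKOV3 (0.10). Most members with CACGTG in the promoter window lay below the all-gene median in SKOV3. Of 11, 2 were higher and 4 lower (18.2% and 36.4%, beside 20.7% and 18.2% of all genes), with a median of -0.50. Of the 6 with TCACGTGA, 1 was higher and 3 lower (16.7% and 50%), with changes from -1.27 for MCOLN1 to 2.23 for GAA. Among these 6, GAA alone lay above the all-gene median. The part of TFEB in these changes was not tested. Centred on genes of like expression, the lower calls of ATP6V1G1 (-0.39) and LAMP1 (-0.38), which hold both forms, were lost. MCOLN1, GAA and ATP6V1G1 hold TCACGTGA with its further G and C in the sequences printed above. The 22 members with an entry and no CACGTG had a median of -0.01, with 4 higher and 4 lower (18.2% each). Across all genes the 213 with TCACGTGA had a median of -0.16, with 14.1% higher and 21.6% lower. In HeyC2, where TFEB was not called, the 10 tested members with CACGTG had a median of -0.20 and the 20 without it -0.15.

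Set side by side, the lines differed in which members changed. Of the 41 tested in both, TCIRG1, CTSB and ASAH1 were higher in HeyC2 and lower in SKOV3, 7.32% of members beside 1.77% of all genes. In SKOV3 all 3 of these calls fell within 1.5-fold when centred on genes of like expression (-0.57, -0.43 and -0.57), with TPM and no centring, and on the GAPDH-scaled values with no centring. No member was lower in HeyC2 and higher in SKOV3, beside 1.38% of all genes. Only 2 members, NEU1 and SMPD1, were called lower in HeyC2, so this count can show little. In all, 20 of the 41 were called in neither line, and the share of all genes called in neither was not counted. With 1 library per condition, a difference between lines cannot be told apart from a difference between single cultures. Of the cell type genes given above, KRT7 was higher with TET1 in HeyC2 and lower in SKOV3. COL1A1 was near the floor in HeyC2, at 0.57 and 1.76 FPKM, and was at 0.32 and 27.66 in SKOV3. It passed the filter only through the TET1 library of each line, so no log2 change is given for it. The part of the keratin and collagen changes in those of the members was not tested.

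**Figure D4:**
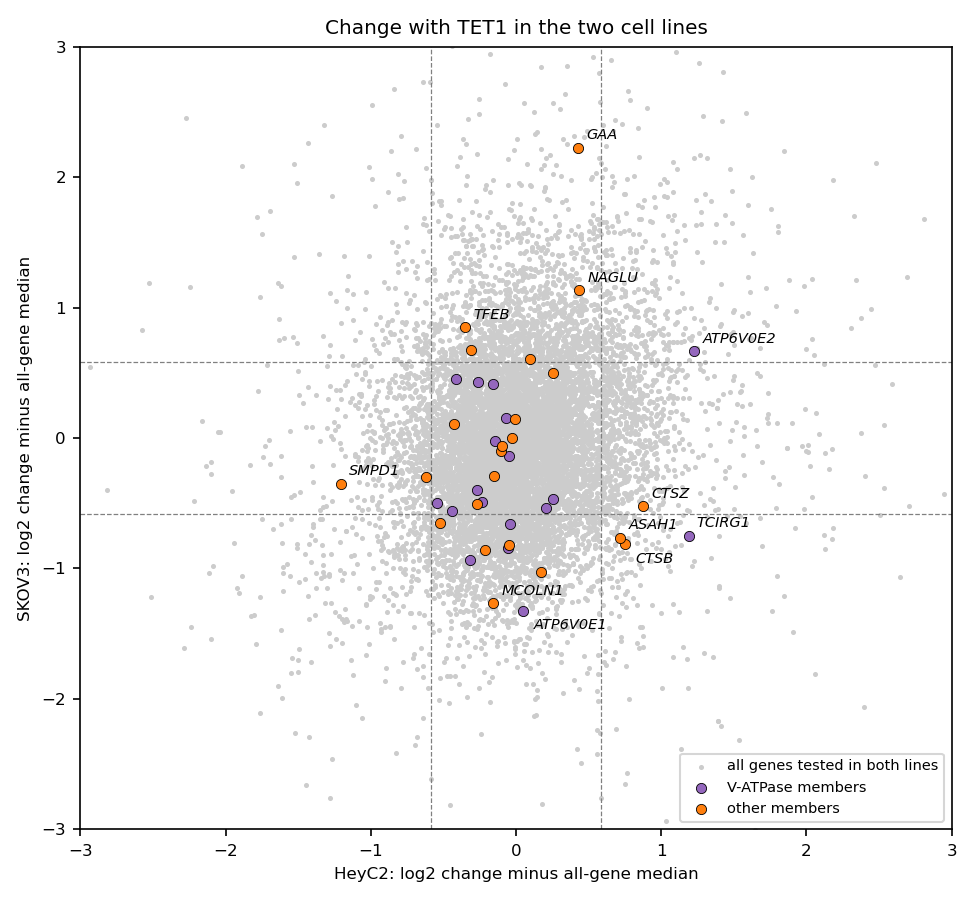
Change with TET1 in HeyC2 (horizontal) and SKOV3 (vertical), each as log2 change minus the all-gene median, for genes tested in both lines (grey) and the 41 members tested in both (V-ATPase in purple, others in orange). Dashed lines mark 1.5-fold, 57 genes lie outside the axes, and TCIRG1, CTSB and ASAH1 lie below and to the right of these lines.

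The level of these genes in the control libraries gives the baseline from which the changes start. The HeyC2 and SKOV3 tables were normalized separately, so the comparison is a description, centred on its own all-gene median of -0.27 and called past 2-fold. Of 43 members tested, 3 were higher in HeyC2 (6.98%, beside 18.6% of 12488 genes) and 4 lower (9.30%, beside 17.8%), and 36.4% of all genes passed 2-fold in either direction. With no centring, 0 members were higher and 7 lower, and the share of all genes was not counted under that setting. ATP6V1B2 was higher in HeyC2 at 39.17 against 19.61 FPKM (1.23), as were MAN2B1 at 57.22 against 29.21 (1.21) and GLB1, the β-galactosidase, at 34.13 against 20.09 (at the limit). CTSD was lower in HeyC2, at 124.4 against 711.9 FPKM (4.72-fold), and so was ASAH1 at 11.07 against 54.94 (3.85-fold). CTSF and CTSH, which passed the filter through SKOV3 alone, were the other lower genes, and no fold is given for them. All 8 glycosidases lay above the all-gene median in HeyC2, with a median of 0.70. Of 18 tested V-ATPase genes, 17 were within 2-fold.

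Other genes of the pathway were read from lists of 140 genes, of which TFEB and TFE3 are also members. Their counts stand beside the all-gene shares of 12.5% higher and 9.19% lower in HeyC2 and of 20.7% and 18.2% in SKOV3. In HeyC2, of 29 tested other lysosomal hydrolases 3 were higher and 3 lower (median 0.04), and of 24 other lysosomal membrane proteins 3 were higher and 2 lower (0.02). Sorting genes of the mannose 6-phosphate route had 1 higher and 2 lower of 15 (-0.24), Ragulator and Rag genes, which carry nutrient signals from the lysosome to mTORC1, 0 and 1 of 20 (-0.01), and relatives of TFEB with autophagy genes 1 and 5 of 26 (-0.27). The highest were LAPTM4B at 223.2 and 487.5 FPKM (1.07), CTSK, the collagen-degrading cathepsin K, at 1.40 and 4.05 (1.02) and SGSH, a heparan sulfatase, at 1.46 and 3.91 (0.94). The lowest were the autophagy genes ATG16L1 at 61.25 and 26.90 FPKM (-1.22) and GABARAPL1 at 76.52 and 36.05 (-1.12), and ARSB, a dermatan sulfate sulfatase, at 4.66 and 1.85 (-1.05). M6PR, one of the mannose 6-phosphate receptors, was at 76.98 and 39.85 FPKM (-0.99). GABARAPL1 and M6PR lie on the short arm of chromosome 12, where the median change of 152 genes was -0.72 in HeyC2, beside 0.05 for 143 genes in SKOV3.

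In SKOV3, 7 of 30 tested other hydrolases were higher and 1 lower, with a median of 0.16 (23.3% and 3.33%, beside 20.7% and 18.2% of all genes). Of 22 other membrane proteins 2 were higher and 2 lower (9.09% each, median 0.09). The sorting genes had 1 higher and 5 lower of 15 (-0.21), the Ragulator and Rag genes 5 and 3 of 21 (-0.32), and the relatives of TFEB with autophagy genes 5 and 4 of 26 (0.09). IDUA, which like NAGLU acts on heparan sulfate, was highest at 2.34 and 17.26 FPKM (2.26), followed by SIAE, an esterase of sialic acids, at 3.07 and 10.74 (1.34) and ROGDI, of a V-ATPase assembly complex, at 15.86 and 40.08 (1.09). AP1M1, a clathrin adaptor gene, was lowest at 50.18 and 21.02 FPKM (-1.41), followed by ATG12, an autophagy conjugation gene, at 17.90 and 7.17 (-1.40) and LAMTOR1, the membrane anchor of Ragulator, at 97.93 and 47.95 (-1.21). Of 7 assembly genes of the pump, 1 was higher and 0 lower in HeyC2 (-0.03), and 2 higher and 1 lower in SKOV3 (0.09). Of 7 V-ATPase genes outside the 19 members, 1 was tested in HeyC2 and 2 in SKOV3. Among them was ATP6V1C2, the partner of ATP6V1C1, at 27.46 and 49.64 FPKM in HeyC2 (0.77, higher) and 23.98 and 19.56 in SKOV3 (-0.47). It made up 64.3% to 73.7% of C subunit FPKM in the 4 libraries, above ATP6V1C1 in each.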

How the data were processed

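RNA sequencing of 4 libraries was analysed, 1 per condition: control and TET1 of HeyC2 and of SKOV3. The authors sequenced paired-end TruSeq libraries, aligned reads to hg19 with Bowtie2 2.2.6 and deposited FPKM from RSEM 1.2.17. The annotation, filters, strand setting and read totals are not given in the sources used here. In the deposited values, 100% of distinct TET1 FPKM below 40 lay on a grid of 0.01 times a constant equal to the GAPDH ratio, and this factor was divided out before a pseudocount of 1 was added.

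Genes with a mean of at least 1 FPKM were tested, centred on the all-gene median, and called at 1.5-fold (2-fold between lines). Depth was estimated from the FPKM steps of genes with 1 annotated transcript, and fragments from FPKM, GENCODE v44 length on GRCh37 and depth, with 95% intervals where both libraries held at least 10. Intervals cover counting error only. Promoter sequences came from RefSeq on GRCh38.p14. The members and gene lists were chosen with earlier results of these data known. Every member was described by role, in full for those past 1.5-fold, the 5 highest and 5 lowest in each line, the paralogue sets and TFEB and TFE3, and the wider lists by counts with their 3 highest and 3 lowest. Calculations were tested on simulated data and used Python 3.11.15, numpy 2.4.6, pandas 2.3.3 and matplotlib 3.10.9.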

Additional observations from a re-analysis of the deposited data

Results flagged for a closer look

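The change with TET1 went in opposite directions in the lines for TCIRG1, CTSB and ASAH1, each called past 1.5-fold in both. TCIRG1 changed by 1.19 on the log2 scale relative to the all-gene median in HeyC2 and by -0.75 in SKOV3. For CTSB the changes were 0.75 and -0.82, and for ASAH1 they were 0.72 and -0.77. Each condition has 1 library, so the difference between lines was not tested for these genes. In SKOV3 the calls of TCIRG1 and ASAH1 fell within 1.5-fold under 4 of the other settings and that of CTSB under 3, while their direction was the same.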

How the results depend on the processing

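No paired analysis was possible because each condition has 1 library and no test was made. The cause of the differences between settings was not tested, beyond what each setting changes by construction. Shares of all genes called were not counted under these settings, so the member counts below have no background beside them. In HeyC2, the GAPDH-scaled values without centring gave 41 higher and 0 lower members and medians of 1.61 for all members, 1.56 for V-ATPase and 1.69 for lysosomal genes, and turned NEU1 to 1.08 and SMPD1 to 0.35. With centring, the GAPDH-scaled values gave a lysosomal median of 0.076. Upper-quartile scaling in place of centring gave 1 lower member, a limit of 2-fold 2 higher and 1 lower, and a limit of 1.2-fold 12 lower. In SKOV3, the GAPDH-scaled values without centring gave 18 higher and 2 lower and medians of 0.31, 0.13 and 0.32 in the same order. TPM in place of centring gave 13 higher, 6 lower and medians of -0.055, -0.24 and -0.050. Centring on genes of like expression gave 13 higher, 6 lower and medians of -0.10, -0.13 and -0.092. Upper-quartile scaling in place of centring gave medians of -0.11, -0.26 and -0.11, the correction for GC content and length a V-ATPase median of -0.35, a limit of 2-fold 2 higher and 3 lower, and a limit of 1.2-fold 13 higher and 23 lower. Between the controls, no filter gave medians of 0.15 for all members and -0.0024 for V-ATPase, values without centring gave 0 higher, 7 lower and medians of -0.015, -0.15 and 0.28, upper-quartile scaling with no centring gave medians of 0.11, -0.025 and 0.39, and a limit of 1.5-fold 11 higher and 8 lower. A count was taken as moved past a ratio of 1.5 and a median past 0.1. Of the values for single called genes, 268 stayed on their side of the limit, 40 fell within it and 2 reversed. Low genes such as ATP6V0E2 and ATP6V1B1 rest on few fragments, and their intervals are wide.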
